A study of Homo sapiens with 6 samples.

Results

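Imprinted genes are expressed mainly from the allele inherited from 1 parent. Described here are 10 of them: H19, IGF2, PEG3, PEG10, MEST, PLAGL1, GRB10, CDKN1C, NAP1L5 and NDN. The rule takes them by gene name and uses no measured value, although the set was drawn up with earlier results of these data known. Of the 10 genes, 7 had a row in each of the 2 deposited tables, which together hold 17721 gene identifiers. IGF2, PEG3 and NDN were not listed in either table, whether sought by name or by Ensembl identifier.

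In an imprinted domain, a control region carries DNA methylation on the copy from 1 parent and not on the other, and the maintenance methyltransferase DNMT1 copies that mark at each cell division. H19 and IGF2 are the textbook pair: the insulator protein CTCF binds the unmethylated maternal control region, so that H19 is expressed from the maternal copy and IGF2 from the paternal copy. PEG3, PEG10, MEST, PLAGL1, NAP1L5 and NDN are known as paternally expressed, CDKN1C as maternally expressed, and GRB10 as expressed from either parent's copy depending on tissue and isoform. FPKM values sum over both alleles, so nothing below bears on which allele was expressed.

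The labels describe 6 RNA samples from U2OS, an established human osteosarcoma line, cultured in DMEM/F12 with fetal bovine serum. Input RNA came from 1 sample of control cells (shNC, genotype WT) and 1 sample of cells with DNMT1 knocked down (shDNMT1). A further 2 samples of each kind of cell gave RNA pulled down together with mutant NSun2 (NSun2 is an RNA cytosine methyltransferase) after transfection of a plasmid for that mutant. The labels do not say whether the samples came from separate cultures or whether the hairpin lines were clones. Neither table names a sample or a condition, so the names table A and table B are used below, with no meaning in the order. Whether the tables differ by knockdown, or by input against immunoprecipitate, is therefore not known. No difference below can be read as either. Each gene has 1 value per table, with no replicate, SD or test.

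Table A listed 15167 genes with a median of 4.03 FPKM (fragments normalised for transcript length and library size), and table B 16824 genes with a median of 3.43 FPKM. Where 2 values are given for a gene, that of table A comes first. The tables give no depth. The 5th percentile of table B was lower, at 0.0826 FPKM against 0.166 FPKM in table A, and a gene without a row is described as not listed, which is not a level of 0. Defining osteoblast markers, expected from the label, were few: of 9, 2 were listed in table A and 5 in table B. Among them ALPL, the bone alkaline phosphatase, stood at 78.4 and 38.0 FPKM, whereas the osteoblast regulator RUNX2 was listed in table B only, at 0.806 FPKM. The collagen gene COL1A1 stood at 3.04 and 0.451 FPKM. SPARC and BGLAP were listed in table B only, at 0.0328 and 0.144 FPKM. The epithelial keratins KRT8 and KRT18 stood between 1196 and 1597 FPKM, within the 40 most abundant genes of each table. Of 15 markers of other cell types, those keratins among them, 5 were listed in each table, the others at no more than 2.20 FPKM. Imprinted genes are prominent in placenta and fetus; of 6 markers of these tissues the hormone subunit CGA alone was listed, at 15.1 and 2.31 FPKM.

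The reference windows of 3 of the genes are shown first, because DNA methylation acts on CpG dinucleotides and because these genes differ in how many they carry at their start. H19, NAP1L5 and NDN are the members with a single start site in the RefSeq promoter table (GRCh38.p14). Each window runs from 250 bases before the start to 50 bases after it, 5′ to 3′ on the gene's own strand (the minus strand for all 3), with every CpG in capitals. The H19 window lies at chr11:2001217-2001516, that of NAP1L5 at chr4:88697780-88698079 and that of NDN at chr15:23687256-23687555.
H19: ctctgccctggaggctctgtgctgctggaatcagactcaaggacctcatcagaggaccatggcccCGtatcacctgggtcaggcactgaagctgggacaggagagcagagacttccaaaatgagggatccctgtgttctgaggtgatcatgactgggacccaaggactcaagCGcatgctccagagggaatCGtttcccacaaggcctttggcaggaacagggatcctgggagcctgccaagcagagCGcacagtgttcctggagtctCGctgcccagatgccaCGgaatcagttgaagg
NAP1L5: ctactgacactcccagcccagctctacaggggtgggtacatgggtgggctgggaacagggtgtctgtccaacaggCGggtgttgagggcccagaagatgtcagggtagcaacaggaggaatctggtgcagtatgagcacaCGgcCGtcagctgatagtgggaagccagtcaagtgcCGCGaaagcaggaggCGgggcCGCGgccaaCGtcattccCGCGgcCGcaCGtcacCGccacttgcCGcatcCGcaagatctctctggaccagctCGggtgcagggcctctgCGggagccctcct
NDN: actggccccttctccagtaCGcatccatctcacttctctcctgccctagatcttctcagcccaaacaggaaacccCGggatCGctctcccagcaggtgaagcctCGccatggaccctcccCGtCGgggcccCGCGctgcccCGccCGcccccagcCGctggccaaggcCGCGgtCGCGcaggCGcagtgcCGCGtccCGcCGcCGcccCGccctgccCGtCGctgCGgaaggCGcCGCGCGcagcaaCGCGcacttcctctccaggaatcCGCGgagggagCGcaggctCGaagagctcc
The H19 window holds 6 CpG dinucleotides, that of NAP1L5 holds 18 and that of NDN holds 35. Across all 35116 windows of the table the median was 14 and the quartiles were 4 and 28, so NDN is above the upper quartile and H19 below the median.

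The other members with windows had 5 start sites each. Those of GRB10 held 3 to 49 CpG dinucleotides, those of PLAGL1 held 2 to 39 and those of MEST held 13 to 25. The letters TGCCGC, the core of the motif of the imprint-protecting zinc finger protein ZFP57, were sought on both strands. They occurred in the windows of NAP1L5 and NDN, in 4 of 5 windows of MEST, in 1 of 5 of PLAGL1 and in 1 of 5 of GRB10, and not in that of H19. Some windows of MEST overlap, so the same copy of the letters can be counted there more than once. Of all windows in the table, 16.7% held them. IGF2, PEG3, PEG10 and CDKN1C had no entry, so that 60% of the members had a window, and a statement about the promoters of the members as a set is void. The windows are reference sequence taken at gene starts and were not chosen as imprinting control regions. Their methylation and the binding of ZFP57 were not measured here.

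H19, a long noncoding RNA that is abundant in fetal tissue and is also the precursor of the microRNA miR-675, had the highest level of the 7 listed members in both tables. It was listed at 78.1 FPKM in table A, where it ranked 755 of all genes, and at 40.4 FPKM in table B, where it ranked 1626. Table A was thus 1.93-fold higher. H19 (ENSG00000130600; chromosome 11, 1995163 to 2001470, hg38) shared its locus with no other row. Its log2 ratio of table B over table A, on the log2(FPKM + 1) scale used for all ratios here, was -0.94. In bulk RNA, fewer cells that express a gene and less RNA per cell cannot be told apart. Without sample names, neither can be told apart from a difference in pulldown. Neither MIR675 nor the IGF2-linked rows IGF2-AS and INS-IGF2 were listed.

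Of all 14270 genes listed in both tables, 2.11% had a ratio as low as that of H19. Among the 1688 other genes whose mean level was within 2-fold of that of H19, 0.652% did, and the middle 90% of those genes ran from -0.54 to 0.62. These shares place H19 among other genes in this pair of tables and are not a test between conditions. Of the 7 listed members, H19 was the one outside the middle 90% of genes of its own level.

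IGF2, the fetal growth factor that shares its control region with H19, was not listed. Its receptors and partners were. Of 18 genes of the insulin-like growth factor axis, 13 were in both tables, 9 higher and 4 lower in table B, with a median log2 ratio of 0.18. Over all genes in both tables, 54.8% were higher and 45.2% lower in table B, and the median was 0.05. IGF1R, the receptor kinase through which IGF2 signals, was listed at 29.7 and 42.9 FPKM. IGF2R, which carries IGF2 to the lysosome and is itself an imprinted gene in mouse, was listed at 17.1 and 20.03 FPKM. The adaptor IRS2 was listed at 18.5 and 20.99 FPKM. These 3 genes were higher in table B by less than 2-fold.

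The binding proteins IGFBP4, at 50.6 and 59.4 FPKM, and IGFBP6, at 39.6 and 44.8 FPKM, were the most abundant genes of that axis. IGF2BP2, an RNA-binding protein named for its contact with IGF2 mRNA, was listed at 1.79 and 5.99 FPKM. With a log2 ratio of 1.32 it was the 1 gene of those 13 that differed by at least 2-fold, which 3.72% of all genes did. IGF1 and IGFBP5, like IGF2, were not listed.

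CDKN1C (p57), an inhibitor of G1 cyclin-dependent kinases, lies in the same chromosome 11 domain under a second control region. It was listed at 11.7 FPKM in table A and 17.2 FPKM in table B, a log2 ratio of 0.52. Its row (ENSG00000129757; chromosome 11, 2883213 to 2885881) shared its locus with no other. CDKN1C was the second most abundant listed member in table B and the third in table A. Its paralogs CDKN1A (p21), at 16.5 and 23.8 FPKM, and CDKN1B (p27), at 10.5 and 9.91 FPKM, stood at a like level. Among the kinases and cyclins it can bind, CDK4 was listed at 200.3 and 168.8 FPKM, CDK2 at 69.7 and 80.1 FPKM and CCND3 at 122 and 93.6 FPKM. Of 14 such partners of CDKN1C and NDN, 12 were in both tables, 8 higher and 4 lower in table B, against the 54.8% higher over all genes. Cyclin E2 (CCNE2), at 0.48 and 2.37 FPKM (log2 ratio 1.19), was the 1 gene of the 12 that differed by at least 2-fold. Over all genes in both tables, 3.72% did.

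GRB10, an adaptor that damps insulin and IGF1 receptor signalling, had the largest upward ratio of the listed members. It was listed at 10.02 FPKM in table A and 15.8 FPKM in table B, a log2 ratio of 0.61. Its row (ENSG00000106070; chromosome 7, 50590063 to 50793462) shared its locus with no other. Of all genes in both tables, 11.3% had a ratio as high. DDC, an imprinted gene beside it, was low at 0.616 and 0.545 FPKM. The adaptor GRB7 was listed at 12.9 and 11.3 FPKM, and GRB14 at 0.367 and 0.138 FPKM. GRB10 and its relative GRB7 were thus of a like level, and GRB14 was listed below 1 FPKM in both tables.

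PEG10, a gene derived from a retrotransposon and needed for placental development, was listed at 15.7 FPKM in table A and 11.03 FPKM in table B. Its log2 ratio was -0.47. The row (ENSG00000242265; chromosome 7, 94656325 to 94669695) shared its locus with no other. SGCE, the sarcoglycan gene that shares the PEG10 promoter region in head-to-head orientation, was listed at 2.76 and 2.70 FPKM (log2 ratio -0.02). PEG10 was thus the more abundant of this pair in both tables, while the pair did not have the same ratio. RTL1, another retrotransposon-derived imprinted gene, was near the floor at 0.0574 and 0.295 FPKM.

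PLAGL1 (ZAC1), a zinc finger transcription factor linked to transient neonatal diabetes, was listed at 11.5 FPKM in table A and 9.61 FPKM in table B. Its log2 ratio was -0.23. HYMAI, a noncoding RNA that starts at the same imprinted promoter, shared the locus (ENSG00000118495 for PLAGL1; chromosome 6, 143940300 to 144064599) and was listed at 0.374 and 0.502 FPKM. The paralog PLAGL2, which is not known as imprinted, was listed at 7.08 and 12.96 FPKM (log2 ratio 0.79). The 2 paralogs therefore stood in opposite order in the tables, PLAGL1 above PLAGL2 in table A and below it in table B.

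MEST (PEG1), a hydrolase-like protein of mesoderm, was listed at 9.12 FPKM in table A and 11.4 FPKM in table B. Its log2 ratio was 0.30. The locus (ENSG00000106484 for MEST; chromosome 7, 130486042 to 130687432) was a merged interval that also held COPG2, MESTIT1 and 1 row with a clone-based name. COPG2, a coatomer subunit that overlaps MEST tail to tail, was listed at 3.63 and 5.77 FPKM. The antisense RNA MESTIT1 was listed in table B only, at 0.0315 FPKM. No source used here says whether counting used strand, so fragments in the overlap of MEST with its antisense partners cannot be assigned with certainty. Summed over the locus the values were 12.9 and 17.2 FPKM (log2 ratio 0.39).

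NAP1L5, a small gene of the nucleosome assembly protein family, was the lowest of the listed members and the 1 below the median of all genes. It was listed at 0.613 FPKM in table A and 0.920 FPKM in table B, a log2 ratio of 0.25. The gene itself spans chromosome 4, 88695913 to 88697829 in RefSeq, and sits inside HERC3. Its row (ENSG00000177432) carries the merged interval 88520985 to 88708542, shared with HERC3, at 2.33 and 1.50 FPKM, and with PYURF, at 2.95 and 11.4 FPKM. The log2 ratio of PYURF was 1.65 and that of HERC3 was -0.41, so the 3 rows of this locus did not have a common ratio. Their sum was 5.89 and 13.8 FPKM (log2 ratio 1.10), and PYURF was the 1 row of the locus that differed by more than 2-fold. How fragments were divided among the 3 rows was not tested. Of its relatives, NAP1L1 was listed at 52.2 and 53.03 FPKM and the imprinted-domain gene NAP1L4 at 37.9 and 36.0 FPKM. NAP1L2 was listed in table B alone, at 0.072 FPKM, and NAP1L3 had no row. Of the 15 paralogs of the members that were sought, 10 were in both tables, 5 higher and 5 lower in table B. None differed by 2-fold on the log2(FPKM + 1) scale. Over all genes in both tables, 54.8% were higher and 3.72% differed by at least 2-fold on that scale. Without the pseudocount, the log2 ratios of NSMCE3 (1.08), GRB14 (-1.41) and RTL1 (2.36) passed 2-fold.

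NDN (necdin), a growth suppressor of the MAGE family that is deleted in Prader-Willi syndrome, and PEG3, a zinc finger protein of embryo and placenta, were not listed. Their close neighbours MAGEL2 and, for PEG3, ZIM2, ZIM3 and MIMT1 were not listed either. Of the MAGE family members related to NDN, MAGED1 was listed at 0.572 and 0.555 FPKM and NSMCE3 at 1.54 and 3.25 FPKM. MKRN3, the imprinted gene upstream of MAGEL2 and NDN, was listed at 4.20 and 2.35 FPKM. Some genes of the NDN neighbourhood were thus listed although NDN was not.

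**Figure D1:**
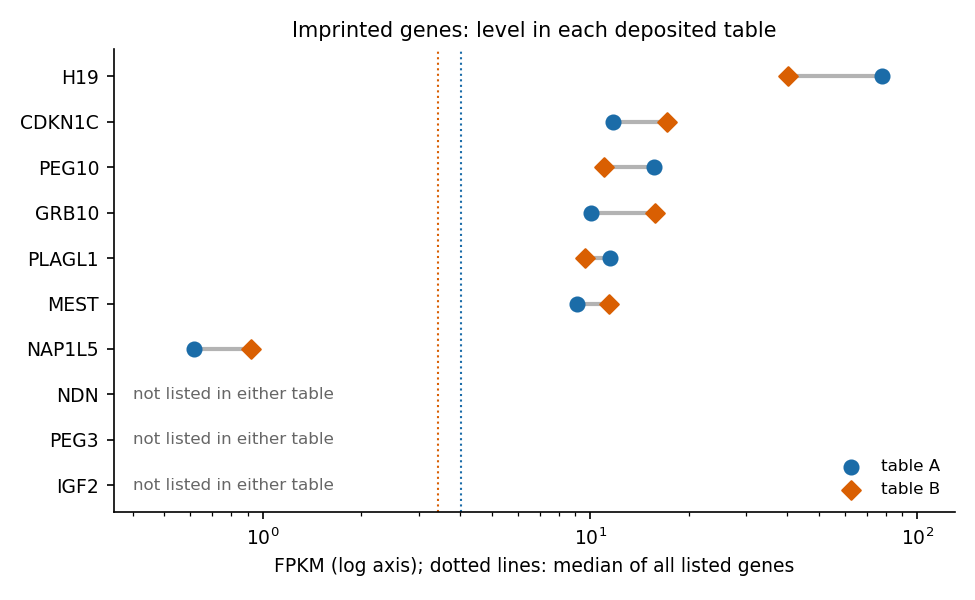
FPKM (log axis) of the 10 imprinted genes in table A (circles) and table B (diamonds), 1 value per gene and table, with a grey bar joining them; dotted lines mark the medians of all listed genes (4.03 and 3.43 FPKM). H19 lies highest, 5 genes lie between 9.12 and 17.2 FPKM, NAP1L5 lies below 1 FPKM, and IGF2, PEG3 and NDN have no row.

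The plot of levels shows 3 tiers. H19 stood apart, at 4.98 times the next member in table A and 2.35 times in table B. PEG10, CDKN1C, PLAGL1, GRB10 and MEST formed a middle tier of 9.12 to 15.7 FPKM in table A and 9.61 to 17.2 FPKM in table B. Within that tier the highest member was 1.72 times the lowest in table A and 1.79 times in table B, and the order changed from PEG10, CDKN1C, PLAGL1, GRB10, MEST to CDKN1C, GRB10, MEST, PEG10, PLAGL1. Neighbours in either order differed by at most 1.38-fold, and with 1 value per table their order cannot be separated from error. These genes and H19 were above the median of each table.

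None of the 7 listed members differed by 2-fold or more between the tables. Over all 14270 genes in both tables, 3.72% did, with 2.04% higher and 1.68% lower in table B, so a count of 0 among 7 genes is near that background. CDKN1C, GRB10, MEST and NAP1L5 were higher in table B, and H19, PEG10 and PLAGL1 were lower. The median log2 ratio of the members was 0.25, against 0.05 over all genes in both tables. With 6 members, leaving out NAP1L5, which has a mean under 1 FPKM, the median was 0.03. The members thus had no common direction.

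**Figure D2:**
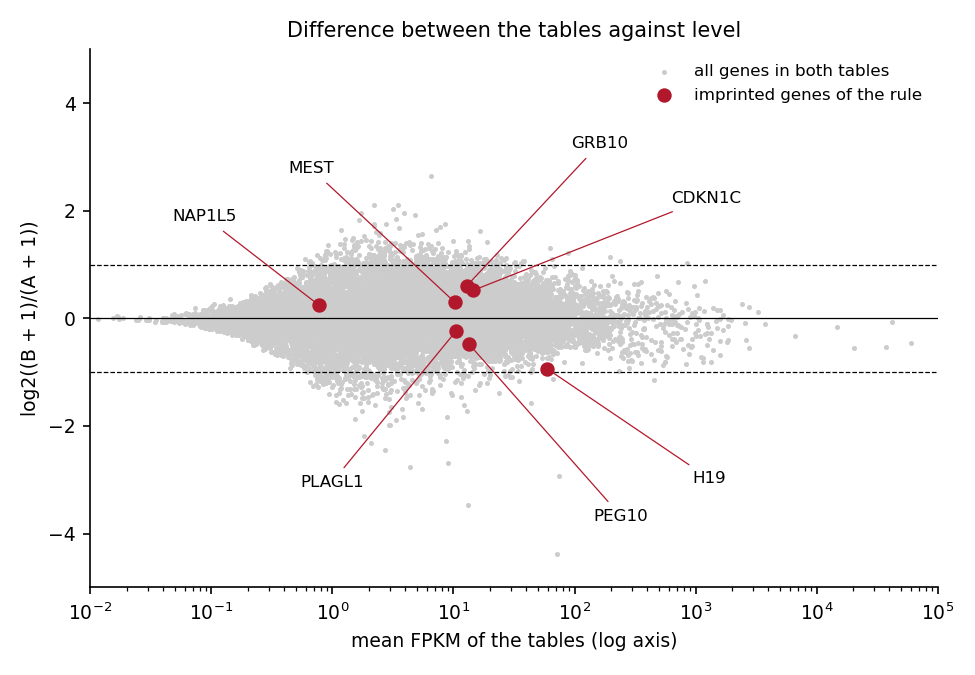
Log2 ratio of table B over table A on the log2(FPKM + 1) scale against mean FPKM (log axis) for all 14270 genes in both tables (grey) and the 7 listed members (red); dashed lines mark 2-fold. All members lie inside the dashed lines, and H19, at -0.94, lies nearest to one.

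A list of 85 genes described as imprinted in human or mouse, which includes the 10 members, gave the setting. Of these, 45 were listed in table A, 49 in table B and 44 in both. Of the 44, 24 were higher and 20 lower in table B, with a median log2 ratio of 0.06, close to that of all genes. Relative to that median of all genes, the split was 22 and 22. On the log2(FPKM + 1) scale, 1 gene was at least 2-fold higher and 1 at least 2-fold lower, against 2.04% and 1.68% of all genes in both tables. Without the pseudocount, INPP5F (log2 ratio -1.65) and SLC22A18AS (-1.27) were also lower by more than 2-fold. ZNF597 (1.20) and RTL1 (2.36), with means under 1 FPKM, were then higher by more than 2-fold. The most abundant were GNAS, a G protein subunit, at 229 and 264 FPKM, H19, SMOC1, a matrix protein, at 63.4 and 50.9 FPKM, and PHLDA2, a placental growth regulator, at 46.4 and 49.9 FPKM. H19 ranked second in the list in table A, at 78.1 FPKM, while at 40.4 FPKM in table B it stood below GNAS, SMOC1, PHLDA2 and BLCAP (44.1 FPKM).

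On the log2(FPKM + 1) scale, the gene at least 2-fold lower was SLC22A18, a membrane transporter gene. It was listed at 27.1 and 12.03 FPKM (log2 ratio -1.11), and its merged locus starts 1.90 kb from the end of CDKN1C. Its antisense partner SLC22A18AS, at 3.70 and 1.53 FPKM, shared the locus. The gene that was at least 2-fold higher on that scale was SNHG14, the long noncoding host transcript that runs antisense to UBE3A. It was listed at 2.54 and 8.31 FPKM (log2 ratio 1.39). SNHG14 shared a merged interval with 9 other rows, among them SNRPN at 12.9 and 15.2 FPKM and UBE3A at 10.1 and 10.7 FPKM. The sum over that interval had a log2 ratio of 0.22.

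The genes were also grouped by imprinted domain, or for 20q by chromosome arm, a grouping made after the values were seen. In the chromosome 11 domain of H19 and CDKN1C, 8 of 13 genes were in both tables, 2 higher and 6 lower in table B, with a median log2 ratio of -0.60, against 45.2% lower and a median of 0.05 over all genes. Since the group was formed after its values were seen, this count is a description. KCNQ1, a potassium channel gene that contains the second control region of the domain, was listed at 12.3 and 6.66 FPKM (log2 ratio -0.80). OSBPL5, an oxysterol-binding protein gene, was listed at 20.01 and 14.99 FPKM (log2 ratio -0.39). PHLDA2, at 0.11, and NAP1L4, at -0.07, had ratios close to 0. The antisense RNA KCNQ1OT1 was not listed.

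CDKN1C, with a log2 ratio of 0.52, and SLC22A18, with -1.11, lie at adjacent loci and had opposite signs. The 3 genes in both tables that lie between H19 and OSBPL5 but are on no imprinted list here had log2 ratios of 0.11 (CD81), 0.05 (TSSC4) and 0.23 (CARS). Absence from the list does not show that a gene is not imprinted. The lower values were thus not shared by every gene of the interval, whether on the list or not. Windows of 1 Mb around a member leave out only that member, so other imprinted genes and rows at its locus are counted. Within 1 Mb of H19, 14 other genes with a mean of at least 1 FPKM had a median log2 ratio of -0.12. The same median was -0.04 around CDKN1C (16 genes), whose window overlaps that of H19. It was 0.03 around PEG10 (6 genes), 0.04 around GRB10 (2 genes), 0.16 around NAP1L5 (8 genes), 0.27 around MEST (10 genes) and 0.29 around PLAGL1 (8 genes). The part of chromosomal position in the ratios of the members was not tested.

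**Figure D3:**
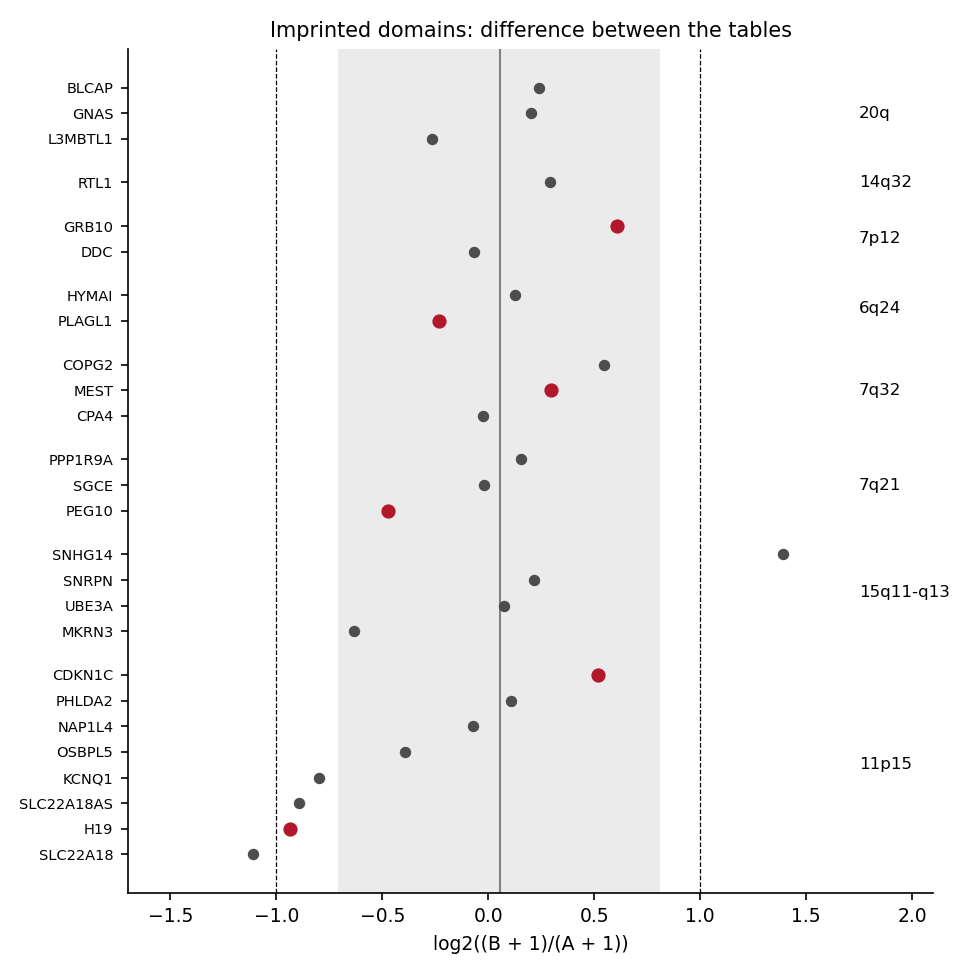
Log2 ratio of table B over table A on the log2(FPKM + 1) scale for genes of 8 imprinted domains in both tables, with members in red; the grey band holds the middle 90% of all genes (-0.70 to 0.81), the grey line is their median and dashed lines mark 2-fold. H19, KCNQ1, SLC22A18 and SLC22A18AS lie left of the band and SNHG14 lies right of it.

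Genes linked to imprint control were mostly listed. This set holds factors that set or keep DNA methylation and also the TET enzymes, which remove it. Of 26, 16 were in both tables, 11 higher and 5 lower in table B, with a median log2 ratio of 0.24, against 54.8% higher and a median of 0.05 over all genes. TRIM28, the corepressor recruited by ZFP57 and ZNF445, was listed at 392 and 342 FPKM. UHRF1, which brings DNMT1 to replicating DNA, was listed at 45.4 and 49.8 FPKM. ZNF445, a zinc finger protein that binds imprinting control regions, was listed at 1.88 and 2.89 FPKM, and ZFP57 itself was not listed. HELLS, a chromatin remodeller needed for DNA methylation, was listed at 8.96 and 15.4 FPKM. The insulator protein CTCF was listed at 3.71 and 4.68 FPKM. On the log2(FPKM + 1) scale, 1 gene of these 16 differed by at least 2-fold, against 3.72% of all genes. It was DNMT1, at 23.3 and 9.36 FPKM (log2 ratio -1.23), whose locus also held 1 other row. Without the pseudocount, SMCHD1 (log2 ratio -1.03), ARID4A (-1.18) and DNMT3A (-1.42) were also lower by more than 2-fold.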

How the data were processed

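The authors deposited 2 tables of FPKM per gene, per the file headers, each with a gene identifier, name, locus and 1 value column that names none of the 6 samples. Per the submitters' processing notes, cutadapt 1.12, BWA 0.7.13, MACS 1.4.2 and hg38 were used, with no role stated. Which tool made the FPKM, and whether a table pools libraries, was not given in the sources used here. Locus starts were counted from 0 and are printed plus 1.

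Members were matched by gene name and checked by Ensembl identifier. The ratio was log2((B + 1)/(A + 1)) for genes in both tables. The pseudocount of 1 FPKM understates differences of low genes. A call was a difference of at least 2-fold, without a test. Of all identifiers, 47.5% shared a locus string with another, so fragments could be divided between genes upstream. The planned comparison of immunoprecipitates was not made, since no column names a sample.

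Named genes were the members, rows at their loci, and of each list the 4 highest by mean FPKM and up to 4 with a mean of at least 1 FPKM that differed by 2-fold. One gene of the lists is not reported here. Others were named for their place or family after their values were seen. Members and lists were chosen with earlier results of these data known. Promoter windows came from RefSeq (GRCh38.p14). Python 3.11.15, pandas 2.3.3, numpy 2.4.6 and matplotlib 3.10.9 were used, and the ratio was tested on simulated data. Alternatives were a pseudocount of 0.1 FPKM or none, centring, a level filter, and sums or filters on shared loci.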

Additional observations from a re-analysis of the deposited data

How the results depend on the processing

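No paired analysis was possible because no column is tied to a sample or replicate, and for the same reason no replicate could be left out. The log2 ratio of every listed member kept its sign with a pseudocount of 0.1 FPKM, with none, with centring on the median of all genes, and with sums over the locus. NAP1L5 crossed 2-fold with the sum over its locus, at 1.10, since the sum adds PYURF. H19 reached -0.99 with centring. The counts of members at least 2-fold higher and lower stayed at 0 and 0 under the pseudocount of 0.1 FPKM, centring and the level filter. The 2-fold counts of the other lists were made with the pseudocount of 1 FPKM alone, and some of their genes passed 2-fold only without it. The median of the members fell from 0.25 to 0.033 with a floor of 1 FPKM on the mean and to 0.023 among the 4 members alone at their locus, where fewer genes enter by construction. The median of the 85-gene imprinted list went from 0.057 to -0.020 with that floor. Centring, the locus filter and the filter that leaves out the members were chosen for these medians after seeing the data, as was the ratio without a pseudocount. Depth is not stated in the tables, so no counting error can be given, and values under 1 FPKM such as those of NAP1L5 are the least certain.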
